A study of Drosophila melanogaster with 6 samples.

Results

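The tetraspanins are a family of small membrane proteins, described here in the oviduct, the tube that carries eggs from the ovary, of the fly Drosophila melanogaster. Members were the genes with a symbol of Tsp and a map position, other than Tsp2A, and lbm, each with an Affymetrix probe set (a group of short probes for 1 transcript) that the platform annotation assigns to that gene alone. The rule found 31 genes, each with 1 probe set, among 10844 genes measured in this way. RefSeq lists 34 genes under these symbols, and Tsp42Ea, Tsp42Eb and Tsp68C were not analysed here. Oviducts of females dissected 3 h after mating (3 arrays) were set against those of unmated females (3 arrays), all from flies 3 days old, with tracts of 400 to 500 females in a pool. The sources used here give no strain or genotype. The labels call the 3 arrays of each group biological repeats, but do not say whether each array had a pool of its own. The p-values below therefore measure the spread between arrays, which may be technical. For each gene limma combines this spread with that of all probe sets.

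Tetraspanins cross the membrane several times and expose a small and a large loop outside the cell. They bind integrins, adhesion proteins, receptors and membrane proteases and gather them into patches of membrane, and they are abundant in endosomes and in vesicles that cells release. In flies, the left-out Tsp2A acts in the smooth septate junctions that seal gut epithelia, Tsp42Ej (also called sunglasses) acts in the turnover of rhodopsin in photoreceptors, and lbm (late bloomer) acts when motor neurons form synapses. Tsp3A, Tsp26A and Tsp86D form the TspanC8 subfamily, which carries the protease Kuzbanian to the cell surface, where it cuts Notch.

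The median intensity over all probe sets was 66.5, 66.1 and 60.6 on mated arrays 1, 2 and 3, against 86.2, 86.0 and 62.4 on unmated arrays 1, 2 and 3. Unmated arrays 1 and 2 stood apart from the other 4 arrays. The summed intensity of 19 markers of ovary, eggshell and germline ran from 2566 to 5308 on the mated arrays and was 3667 on unmated array 3, but 14019 and 14259 on unmated arrays 1 and 2. For 14 markers of midgut and Malpighian tubule the sum was 3468, 4484 and 3325 on the mated arrays, against 7161, 7160.3 and 2985 on the unmated arrays. The proton pump subunit gene Vha55, which many tissues use, made up much of it, and the other 13 markers summed to 1185, 806 and 510.1 on the mated arrays, against 3836, 4487 and 853 on unmated arrays 1, 2 and 3, a sum chosen after seeing the data. The comparisons below are therefore also given without these 2 arrays. As a check of the tissue, 4 of 6 listed receptor genes of the oviduct were measured, and Oamb and mAChR-A were not analysed here. The octopamine receptor gene Octbeta2R, which acts in the oviduct, had intensities from 243 to 653 in mated and from 246 to 405 in unmated oviducts, at percentile 79.9 of all genes, where 100 is the brightest gene. The other receptor genes lay outside the brightest 25%, with Octbeta3R at percentile 67.4, Octbeta1R at 38.3 and Oct-TyrR at 0.581. All 8 measured muscle markers lay in the brightest 25% of genes, with sums from 55873 to 77839 in mated and from 53127 to 82449.6 in unmated oviducts, and 0 of 9 markers of neurons and glia did.

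Many tetraspanin genes were bright in the oviduct. Ranked by mean log2 intensity over the 6 arrays, 15 of the 31 members (48.4%) lay in the brightest 25% of the 10844 genes, 8 lay in the next 25%, 6 in the 25% below that and 2 in the dimmest 25%. In the brightest 5% of genes stood 8 members, which is 25.8% of the family. Membership of the brightest 25% rested on the mean, and 13 members lay in it on every single array. Probe sets bind their transcripts with unequal strength, so the order of brightness is an order of signals and not of transcript numbers. In bulk RNA, fewer cells of a type and less RNA per cell cannot be told apart.

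**Figure D1:**
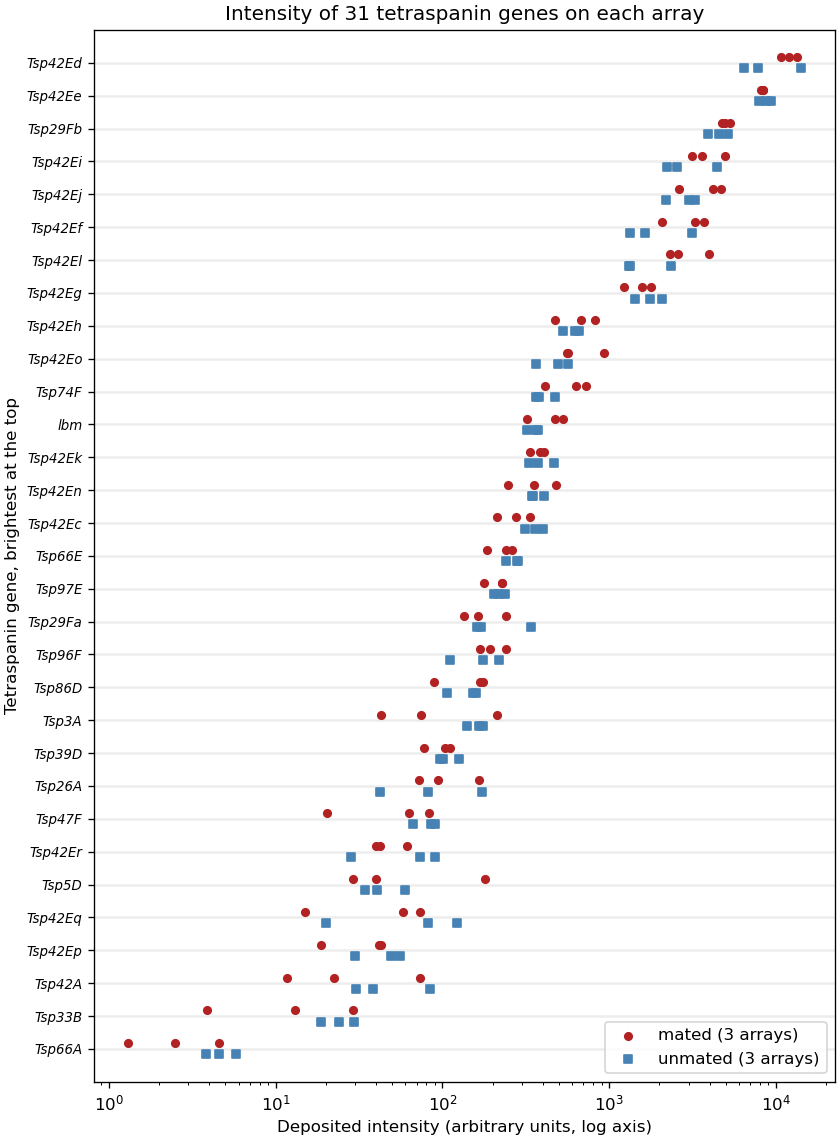
Deposited intensity (arbitrary units, log axis) of each of the 31 tetraspanin genes on each array, with mated arrays as circles above and unmated arrays as squares below, brightest gene at the top. In every gene the 3 mated and the 3 unmated values overlap, and the scatter widens towards the dim genes.

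The bright members came mostly from 1 place in the genome. The gene cluster at 42E holds Tsp42Ea to Tsp42Er and lbm side by side, and 16 of its genes were measured. Of these, 13 lay in the brightest 25% and 0 in the next 25%, while 3 lay in the 25% below that. Among the 12 members outside the cluster and outside TspanC8, 2 lay in the brightest 25%, Tsp29Fb and Tsp74F. The 42E genes had a median percentile of 87.1 among all genes, and the 12 other genes had a median percentile of 61.2.

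Along the cluster the brightness was uneven. In the order of their start in RefSeq, the first measured gene, Tsp42Ec, stood at 337, 275 and 212 on mated arrays 1, 2 and 3, against 401, 312 and 358 on unmated arrays 1, 2 and 3, at percentile 77.7. Its neighbour Tsp42Ed was the brightest tetraspanin, at percentile 99.6 and rank 44 of all genes, with intensities of 13344, 10660.2 and 11989 on the mated arrays and 6411, 7817 and 14174 on the unmated arrays. For Tsp42Ed the mated values were close together, while unmated arrays 1 and 2 lay below them and unmated array 3 above them. The next gene, Tsp42Ee, was almost as bright, with 8393, 8108 and 8353 on the mated arrays, against 9376, 7955 and 8658 on the unmated arrays. Its 6 values hardly differed. The within-group SD of Tsp42Ee was 0.086 on the log2 scale, and 0.701% of the 2711 genes in the brightest 25% had a smaller one; this gene was singled out after its values were seen.

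Further along, Tsp42Ef stood at 3697, 2064 and 3249 in mated oviducts and at 1329.7, 1628.5 and 3153 in unmated oviducts. Tsp42Eg had 1218, 1784 and 1561 on the mated arrays, against 2073, 1751 and 1419 on the unmated arrays. The groups of Tsp42Eg overlapped, and those of Tsp42Ef did so through unmated array 3. Tsp42Eh was dimmer, with 825, 681 and 473 in mated and 531, 626 and 660.3 in unmated oviducts. Tsp42Ei had 4945, 3593 and 3113 on mated arrays 1, 2 and 3, against 2219.6, 2562 and 4410.1 on unmated arrays 1, 2 and 3. As in Tsp42Ed, unmated arrays 1 and 2 of Tsp42Ei were the 2 lowest, but in Tsp42Ei unmated array 3 lay among the mated ones. Tsp42Ej, the rhodopsin turnover gene, stood at 4211, 2614 and 4675 in mated oviducts and at 2179, 2999 and 3250.5 in unmated oviducts. Photoreceptors are not part of the oviduct, and Tsp42Ej lay at percentile 97.6 there.

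In the second stretch of the cluster Tsp42El alone lay in the brightest 5% of genes. Tsp42Ek, which overlaps Tsp42Ej in RefSeq, had 386, 336 and 408 in mated and 466, 332 and 374 in unmated oviducts. Tsp42El had 2583, 2315 and 3936 on the mated arrays, against 1315, 2358 and 1336 on the unmated arrays. Only mated array 2 and unmated array 2 overlapped in Tsp42El. The synapse gene lbm stood at 530.5, 319 and 469.7 in mated and at 322, 373 and 362 in unmated oviducts. Tsp42En had 479.6, 351.5 and 246 on the mated arrays, against 404, 343 and 349 on the unmated arrays. In both genes the mated arrays spread more widely than the unmated ones. At the far end, Tsp42Eo was bright at percentile 86.4, with 928, 559 and 562.5 in mated and 496, 364 and 563 in unmated oviducts, whereas Tsp42Ep, Tsp42Eq and Tsp42Er had percentiles of 35.0, 39.9 and 41.5. Tsp42Ep and Tsp42Eo overlap in RefSeq, and which of their probes lie in the shared stretch was not analysed here. Of the other genes that RefSeq places inside the cluster, Pgant3, which encodes an enzyme that puts sugars on secreted proteins, lay at percentile 53.2 and CG30159 at percentile 85.2.

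**Figure D2:**
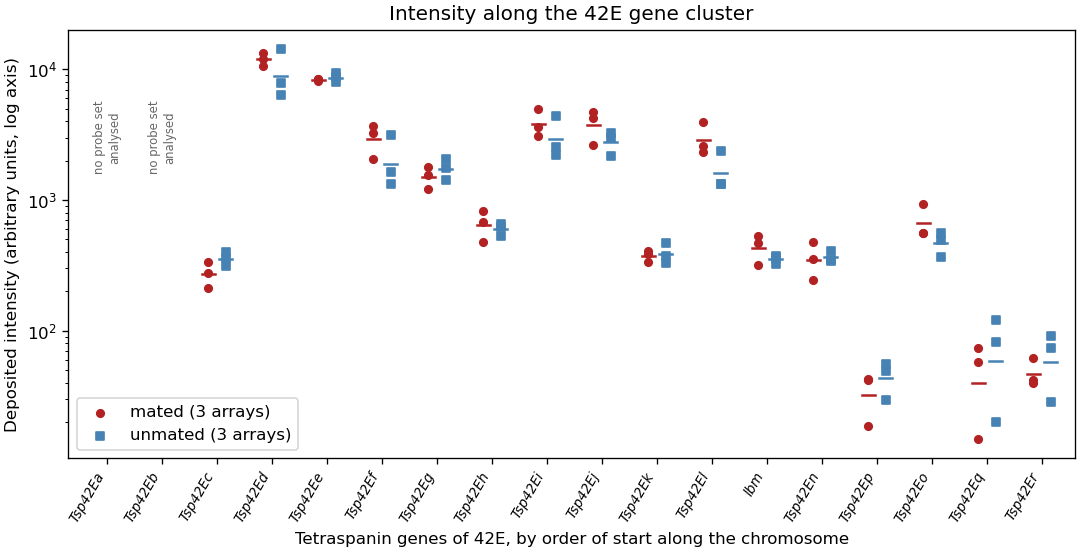
Deposited intensity (arbitrary units, log axis) of the tetraspanin genes of 42E in the order of their start along the chromosome, with mated arrays (circles) left of unmated arrays (squares) and a bar at the geometric mean of each group. Tsp42Ed and Tsp42Ee are the brightest, and Tsp42Ep, Tsp42Eq and Tsp42Er the dimmest.

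Outside the cluster, Tsp29Fb was the brightest member at percentile 98.6. It had 5284, 4947 and 4722 on mated arrays 1, 2 and 3, against 4519, 3904 and 5171 on unmated arrays 1, 2 and 3. Like Tsp42Ee it varied little, with a within-group SD of 0.15 on the log2 scale. Its neighbour by name, Tsp29Fa, lay at percentile 68.4, with means of 180 ± 55.3 in mated and 223 ± 100.1 in unmated oviducts (SD, n = 3 each). Tsp74F had 723.5, 628 and 410.4 in mated and 377, 366 and 475 in unmated oviducts, at percentile 84.5. Mated array 3 of Tsp74F lay inside the unmated values. Tsp66E, Tsp97E and Tsp96F followed at percentiles 73.5, 70.5 and 67.1, just under the brightest 25%. Tsp39D stood near the middle of all genes at percentile 55.3, with 97.1 ± 17.3 in mated and 108 ± 15.7 in unmated oviducts (SD, n = 3 each). Tsp47F, Tsp5D and Tsp42A were dimmer, with percentiles of 44.6, 40.9 and 33.9. Tsp5D stood at 179.5 on mated array 1 but between 28.9 and 59.4 on the other 5 arrays.

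The dimmest members were Tsp33B and Tsp66A. Tsp33B had 29.0, 13.0 and 3.9 in mated and 18.7, 24.1 and 29.6 in unmated oviducts. Tsp66A ran from 1.3 to 4.6 in mated and from 3.8 to 5.8 in unmated oviducts, so that all 6 values lay under 14.2, the lowest lower quartile of any array. In all, 3 members had a value under 14.2, the third being Tsp42A, and no detection calls were used here, so a dim signal was not separated from background.

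The TspanC8 genes, the helpers of Kuzbanian, had middling signals, with percentiles from 53.6 to 61.4. Tsp86D stood at 89.2, 167.5 and 174.5 on mated arrays 1, 2 and 3, against 152.5, 159 and 106 on unmated arrays 1, 2 and 3. Tsp3A had 212, 74.0 and 43.0 in mated and 174, 139.7 and 166 in unmated oviducts. Here mated array 1 was the highest of all 6 and the other 2 mated arrays were the lowest. Tsp26A had 94.5, 165 and 72.0 on the mated arrays, against 42.3, 174 and 82.2 on the unmated arrays, with full overlap. The left-out relative Tsp2A stood at 164, 153.5 and 111.5 in mated and 131, 141.5 and 149.7 in unmated oviducts, at percentile 62.0.

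Mating was then compared in each member. No tetraspanin gene passed the test at an adjusted p of 0.05 in limma, and none had an unadjusted p under 0.05, where 6.59% of all 13966 probe sets did (1.04% with a positive and 5.56% with a negative difference). Over all probe sets 0 passed the adjusted threshold, which is 0% in either direction. In 0 of the 31 members did the mated values clear the unmated ones, against 10.9% of all probe sets, of which 2.33% had the mated values above and 8.59% had them below. The adjusted p of the members ran from 0.768 to 0.999 in limma. The log2 difference was above 0 in 14 members and below 0 in 17, and its median was -0.061, beside a median of -0.16 over all genes. Without unmated arrays 1 and 2 the medians were -0.012 for the members and 0.0057 for all genes.

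The largest positive difference was that of Tsp42El, 0.84 ± 0.40 on the log2 scale (SE), a ratio of 1.78, with means of 2945 ± 869 in mated and 1669.9 ± 596 in unmated oviducts (SD, n = 3 each). Its 95% interval ran from -0.097 to 1.77, the unadjusted p was 0.072 and the adjusted p was 0.768 in limma. Without unmated arrays 1 and 2 the difference of Tsp42El was 1.10, with an interval from -0.29 to 2.49. Tsp42Ef had a difference of 0.62 ± 0.45 and Tsp42Eo one of 0.51 ± 0.37 (SE). Without those arrays they had -0.11 and 0.24, so the sign of Tsp42Ef turned. The largest negative differences among members with both means above 14.2 were -1.06 ± 0.71 for Tsp33B, -0.86 ± 0.59 for Tsp3A and -0.79 ± 0.73 for Tsp42A (SE). Tsp42A had 11.7, 22.5 and 73.0 in mated and 38.4, 84.4 and 30.4 in unmated oviducts. Single arrays moved these sizes both ways. Without mated replicate 3 the difference was -0.29 for Tsp33B, -0.35 for Tsp3A and -1.51 for Tsp42A. Without mated replicate 1 it was -1.74 for Tsp33B, -1.50 for Tsp3A and -0.19 for Tsp42A. Without unmated arrays 1 and 2 the differences of Tsp33B, Tsp3A and Tsp42A were -1.38, -0.92 and -0.18. Over all 6 arrays the adjusted p of these 3 genes ran from 0.832 to 0.905 in limma.

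**Figure D3:**
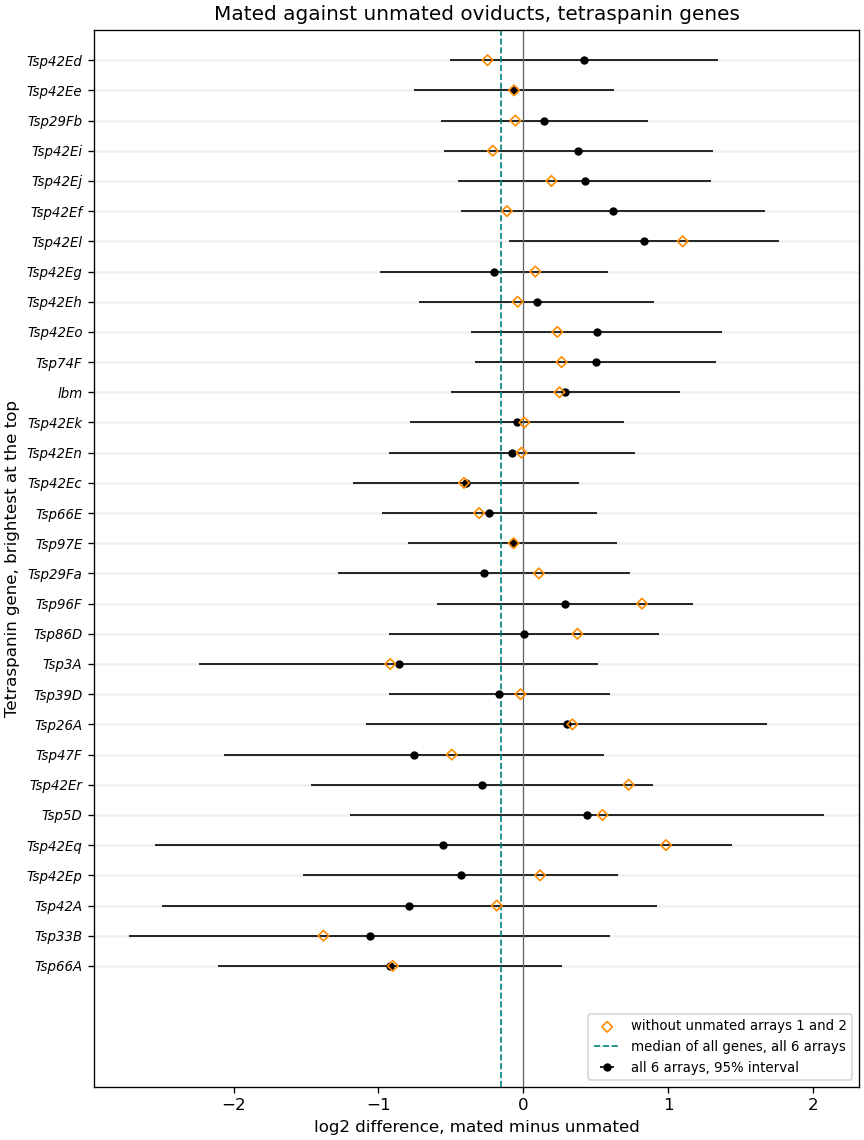
log2 difference, mated minus unmated, of each tetraspanin gene with its 95% interval from limma over all 6 arrays (black) and the difference without unmated arrays 1 and 2 (open diamonds); the dashed line is the median of all genes, -0.16. Every interval spans 0, and the intervals are wider among the dim genes at the bottom.

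How large a change these arrays could have missed depended on brightness. The 15 bright members had intervals with bounds from -1.18 to 1.77 on the log2 scale, and in 6 of them, as in 10 of all 31, the whole interval lay within 1 log2 unit (2-fold) of no difference. For Tsp42Ee, with a difference of -0.061, the interval ran from -0.75 to 0.63, and for Tsp29Fb, with 0.15, from -0.57 to 0.86. In limma (eBayes) the variance of each gene is drawn towards a common value fitted over all probe sets. The intervals of Tsp42Ee and Tsp29Fb are therefore wider than the spread of these genes alone would give. The 16 dimmer members had bounds from -2.72 to 2.08. The median within-group SD was 0.33 in the bright members and 0.68 in the dimmer ones, beside 0.36 and 0.64 in all genes of the same brightness.

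Among the bright members, 10 of 15 had a log2 difference above 0 and their median was 0.29. In all genes of the brightest 25% 56.4% had one above 0, with a median of 0.046. Without unmated arrays 1 and 2, 7 of the 15 lay above 0 and the median was -0.012, beside -0.033 for all genes of that brightness. The dimmer members had a median of -0.28 and all dimmer genes one of -0.26, against 0.045 and 0.021 without those arrays.

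Unmated arrays 1 and 2 stood low in several bright members. In 6 of the 15 bright members (40%), namely Tsp42Ed, Tsp29Fb, Tsp42Ei, Tsp42Ef, Tsp42Eo and Tsp74F, both unmated array 1 and unmated array 2 lay below the other 4 arrays, and in 0 of the 15 did both lie above them. Over all 31 members both lay below the others in 6 and above them in 4, namely Tsp47F, Tsp42Ep, Tsp42Eq and Tsp42Er. Over all probe sets these shares were 6.63% and 23.6%, and among all genes of the brightest 25% they were 17.1% and 9.55%. Tsp42Ef is an example, with log2 values of -0.82 and -0.53 on unmated arrays 1 and 2 and 0.42 on unmated array 3, each relative to its own mean over 6 arrays. Its mated values on this scale were 0.65, -0.19 and 0.47. For Tsp42Ed the log2 difference was 0.42 ± 0.39 (SE) over all arrays and -0.25 without unmated arrays 1 and 2, and for Tsp42Ei it was 0.38 ± 0.39 (SE) and -0.21. Other scalings, chosen after seeing the data, moved these counts and the background with them. After median centring both arrays lay below in 10 of the 15 bright members and above in 0, beside 46.1% and 1.70% of all genes of the brightest 25%. After quantile normalization they lay below in 5 and above in 2, beside 13.8% and 10.7%, and cyclic loess gave 5 and 2, beside 12.4% and 10.4%. Over all 31 members the counts were 5 below and 2 above after quantile normalization or cyclic loess, and 11 below and 0 above after median centring. Markers of ovary and gut were high on the same 2 arrays, as given above, and their part in these values was not tested.

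**Figure D4:**
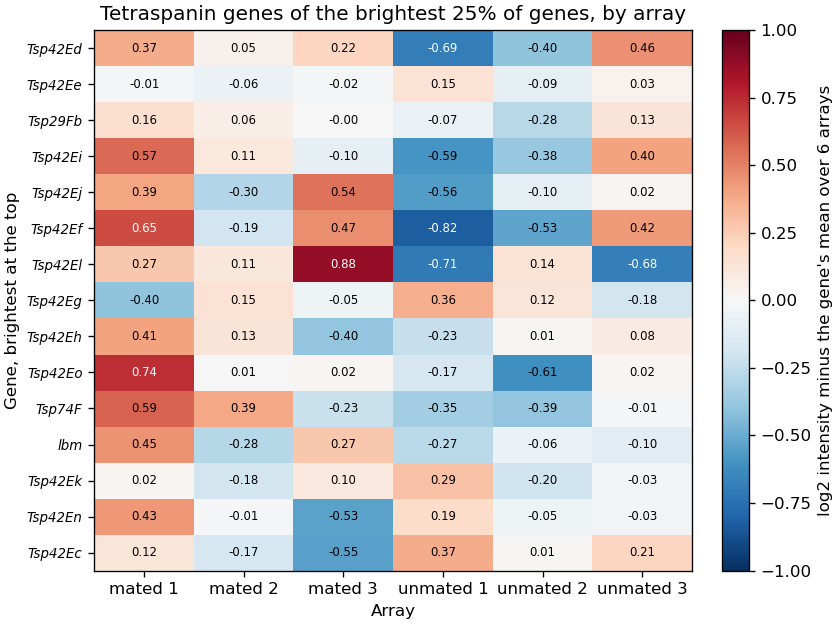
log2 intensity of the 15 bright tetraspanin genes on each array, minus the gene's own mean over the 6 arrays, from blue (low) to red (high), with mated arrays left of unmated arrays. Tsp42Ed, Tsp42Ei and Tsp42Ef are low on unmated arrays 1 and 2 and high on unmated array 3, while Tsp42Ee changes little.

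By group, the percentile differed by over 10 between mated and unmated oviducts in 1 member, Tsp3A. It stood at percentile 53.2 in mated and 63.5 in unmated oviducts. Tsp5D came next, with 45.3 in mated and 35.8 in unmated oviducts. How many of all genes moved by over 10 was not counted. Tsp42Ed had percentile 99.7 in mated and 99.5 in unmated oviducts, and Tsp42Ee had 99.3 in mated and 99.5 in unmated oviducts. Tsp42El, with a ratio of 1.78, had 97.2 in mated and 95.3 in unmated oviducts, so percentiles say little about changes in bright members.

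Partners of tetraspanins were examined as lists, read beside all genes. Of 18 listed genes of Notch cleavage and signalling, 10 were measured, 0 passed in either direction, 2 had a log2 difference above 0 and 8 one below 0. Their median was -0.34 relative to all genes, and -0.023 without unmated arrays 1 and 2. Of the 10 genes, 3 lay in the brightest 25%. Before the median of all genes was taken off, the median of this list was -0.50. It was 0.046 for all genes of the brightest 25% and -0.26 for all dimmer genes. The gene neur, a ubiquitin ligase that activates Notch ligands, had 58.9 ± 9.97 in mated and 95.1 ± 24.3 in unmated oviducts (SD, n = 3 each). For neur the difference on the log2 scale was -0.67, and -0.91 without those arrays. The protease gene Tace had 12.5, 9.1 and 6.1 in mated oviducts, all under 14.2, and 37.7, 18.8 and 8.8 in unmated oviducts. Its log2 difference of -1.06 was 0.0087 without unmated arrays 1 and 2. Of 15 listed integrin genes and linkers, 14 were measured, 6 of them in the brightest 25%. None passed, 10 lay above 0 and 4 below, with a relative median of 0.25, or 0.14 without those arrays. Before the median of all genes was taken off, the median of the integrin list was 0.090, beside the same 0.046 and -0.26. The integrin subunit gene Itgbn stood at 103.6, 64.1 and 137.7 in mated and at 44.6, 119 and 45.8 in unmated oviducts, a log2 difference of 0.64, or 1.08 without those arrays. Another subunit gene, ItgaPS4, had 4.33 ± 1.45 in mated and 16.3 ± 7.56 in unmated oviducts, with groups that did not overlap, an unadjusted p of 0.0043 and an adjusted p of 0.627 in limma, and all of its mated values lay under 14.2. Its log2 difference was -1.86, and -1.79 without unmated arrays 1 and 2.

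Of 23 listed genes of endosomal sorting and vesicle release, a route on which tetraspanins travel, 18 were measured, 13 of them in the brightest 25%. None passed, 12 lay above 0 and 6 below, and the relative median was 0.25, or -0.026 without unmated arrays 1 and 2. Before the median of all genes was taken off, the median of the list was 0.092, beside 0.046 for all genes of the brightest 25%. Vps4, the ATPase that takes sorting complexes off the membrane, stood at 392, 326 and 704 in mated and at 269, 241 and 222 in unmated oviducts, groups that did not overlap, with an adjusted p of 0.757 in limma. Its log2 difference was 0.88, and 1.01 without those arrays. Rab27, a small GTPase of vesicle release, had 128 ± 41.2 in mated and 239.5 ± 74.3 in unmated oviducts (SD, n = 3 each). For Rab27 the difference on the log2 scale was -0.90, and -0.33 without unmated arrays 1 and 2.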

How the data were processed

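The authors deposited 1 intensity per probe set and array on a linear scale; per the submitters' processing notes the tool was RMA (version not given in the sources used here). The deposited values are not in log2 form, their quartiles differ between arrays, and their mean over the middle 96% was 250 on each array, so a scaling by 1 factor per array was assumed. Of 14010 probe sets, 44 controls were left out. In the platform annotation 12443 of the other 13966 name 1 gene, 327 several, and 1196 are not listed; 12394 symbols were updated through RefSeq (Release 6 plus ISO1 MT), used for names and gene order only. A gene took its brightest probe set by mean log2.

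Mated and unmated arrays were compared on log2 intensity by limma 3.58.1 in R 4.3.3 (lmFit and eBayes, two-sided), with Benjamini-Hochberg adjustment over 13966 probe sets. The fit was also run on simulated data with independent noise on each array, which lacks the shared deviation of unmated arrays 1 and 2. The number of arrays limits precision. Values on every array are given for members in the brightest 25%, with an unadjusted p under 0.05 or with groups that do not overlap, for the 3 largest differences each way among members with both means above 14.2, and for TspanC8. Other lists show values of at most 3 genes with the smallest p. The genes Octbeta2R, Vha55, Pxn, PPO1, PPO2, Ssk, hoka, SP and those of the fat body list were chosen after seeing values. The members and lists were chosen with earlier results of these data known. Alternatives covered scaling, an offset, a filter, the variance model, array weights, the replicate block, omitted arrays and averaged probe sets. The replicate numbers were not taken to pair the arrays, since the correlation of deviations over 6983 brighter probe sets was -0.40, -0.11 and -0.30 for same-numbered arrays 1, 2 and 3. Across numbers it was 0.45 for mated 1 with unmated 3, 0.42 for mated 2 with unmated 1 and 0.39 for mated 3 with unmated 2. The remaining values were -0.21, -0.22 and -0.00087, and what the arrays share was not tested.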

Additional observations from a re-analysis of the deposited data

How the results depend on the processing

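Under every alternative run, 0 tetraspanin genes and 0 probe sets passed an adjusted p of 0.05 in limma; at an unadjusted p of 0.05 these counts were 0 and 921. The lowest adjusted p of a member was 0.338, without unmated replicate 3. Tsp42El had an unadjusted p under 0.05 after median centring, with 32 added before log2, with trend and robust settings, among probe sets above the median level and without unmated replicate 2. Other members had one only with an array left out. These were Tsp3A, Tsp33B and Tsp66A without mated replicate 1, Tsp42A without mated replicate 3 and Tsp42Ef without unmated replicate 3. Over all probe sets, positive and negative differences under this p in limma numbered 150 and 729 without mated replicate 1. They were 150 and 445 without mated replicate 3, 194 and 458 without unmated replicate 2, and 292 and 1728 without unmated replicate 3. They were 325 and 447 after median centring, 179 and 596 with 32 added, and 163 and 641 with trend and robust settings. Above the median level they were 79 and 245, and members were not tested against these counts. The members' median log2 difference, -0.061, was 0.20 after median centring, which moved the median of all genes to 0.11, and 0.092 among probe sets above the median level, where 23 members were left. Median centring turned Tsp42Ee to 0.20, Tsp42Eg to 0.065, Tsp42Ek to 0.22 and Tsp42En to 0.19. Array weights turned Tsp86D to -0.054. Where unmated arrays 1 and 2 were left out, the lone unmated array was assumed to vary like the mated ones, and Tsp42Ed was -0.25, Tsp42Ei -0.21, Tsp42Ef -0.11, Tsp29Fb -0.054, Tsp42Eh -0.039, Tsp42Eg 0.083 and Tsp42Ek 0.0074. With 1 array left out, Tsp26A ran from -0.20 to 0.82, Tsp42Eh from -0.088 to 0.31, Tsp42Ek from -0.15 to 0.093, Tsp42En from -0.31 to 0.17 and Tsp86D from -0.18 to 0.32, and the cause of these turns was not tested. Of the 20 genes recomputed, the other 9 kept their sign. The share of members in the brightest 25% was 48.4%, and 51.6% with a mean over a gene's probe sets. Each member had 1 probe set, so this mean changed only the values of other genes. With the replicate block the members' median stayed at -0.061, as it must where each block holds 1 mated and 1 unmated array. No call changed, and same-numbered arrays did not deviate together.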

Other observations

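The list of septate junction genes mixes genes of smooth junctions, where Tsp2A acts, with genes of pleated junctions and of cell polarity, and holds Tsp2A itself. Of 18 listed genes 17 were measured, 11 of them in the brightest 25%, and 0 passed in either direction in limma, with 9 above 0 and 8 below on the log2 scale. Relative to all genes their median was 0.16, and 0.030 without unmated arrays 1 and 2. Before the median of all genes was taken off it was 0.0061, beside 0.046 for all genes of the brightest 25%. The gene mesh, whose protein binds Tsp2A at smooth septate junctions, had 139.6, 183 and 117 in mated and 267, 195 and 263 in unmated oviducts, groups that did not overlap, with an adjusted p of 0.762. Its log2 difference was -0.73, and -0.87 without those arrays. Of the smooth junction genes Ssk lay in the brightest 25%, at percentile 88.5, while mesh stood at percentile 67.8, Tsp2A at 62.0 and hoka at 11.7.

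Markers of male tissue, which sperm and seminal fluid could carry in, had low sums that overlapped between the groups. The summed intensity of 11 measured accessory gland genes ran from 158 to 257 in mated and from 176 to 299.8 in unmated oviducts, and 4 of them lay under 14.2 on every array. The gene SP made up much of these sums, with 98.8, 154.5 and 77.4 on the mated arrays, against 143, 113 and 114 on the unmated arrays. Of the 11 genes, 4 had a log2 difference above 0 and 7 below. In 2 of them, Acp26Aa and Acp63F, all mated values lay below the unmated ones, as in 8.59% of all probe sets. Acp26Aa was among the 4 under 14.2. The sum of 9 sperm and testis genes ran from 364 to 584 in mated and from 518 to 760.4 in unmated oviducts, with 1 gene above 0 and 8 below. Relative to all genes the median was -0.32 for the accessory gland list and -0.23 for the sperm and testis list. Without unmated arrays 1 and 2 these medians were 0.19 and 0.61. Among the other marker lists, 9 haemocyte genes summed to between 8254 and 10553 in mated and 9441 and 11779 in unmated oviducts, of which the peroxidasin gene Pxn alone gave 6961 to 8955 in mated and 8081 to 10153 in unmated oviducts. The prophenoloxidase genes PPO1 and PPO2 were dim, with PPO1 at 42.6 ± 32.6 in mated and 100.5 ± 44.8 in unmated oviducts, and PPO2 at 19.1 ± 10.1 in mated and 40.6 ± 12.6 in unmated oviducts (SD, n = 3 each). Their log2 differences were -1.41 and -1.21, with an adjusted p of 0.745 and 0.757 in limma. Without unmated arrays 1 and 2 the differences were -1.03 and -0.67. Of the 9 haemocyte genes 2 lay above 0 and 7 below, with a median of -0.018 relative to all genes. The 7 fat body genes summed to between 9032 and 15764 in mated oviducts, and to 28299, 20645 and 15079.7 on unmated arrays 1, 2 and 3. The yolk protein genes Yp1, Yp2 and Yp3 made up most of it, with 12586, 5896 and 8402 on unmated array 1. Yp1 and Yp3 were highest on unmated arrays 1 and 2, where markers of ovary and gut were also high. The tissue that gave these yolk protein signals was not tested. For the other genes of this list, Lsp2, apolpp, Fbp1 and Fbp2, the log2 differences were -0.47, -0.32, -0.13 and 0.27. Without unmated arrays 1 and 2 these differences were -0.23, 1.09, -0.95 and 0.53, so the sign of apolpp turned.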
